A study of Mus musculus with 9 samples.

Results

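The genes described here are 8 histone variant genes that are transcribed independently of DNA replication: H2afx, H2afz, H2afv, H2afy, H3f3a, H3f3b, H1f0 and H1fx. They were chosen by name, as histone variants with polyadenylated transcripts, out of the gene annotation GENCODE M1 on the mouse genome build mm9. That annotation holds 22367 protein-coding genes on the assembled chromosomes, of which 7 are members. H1f0 is listed there as a pseudogene, so that 22360 other protein-coding genes served as the background for all 8 members.

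Chromatin immunoprecipitation with an antiserum to UBTF, followed by sequencing was performed on primary pre-B cells sorted from bone marrow of C57BL/6 mice. The labels give a gate of B220 high cells with IgM and IgD low for all stages, whereas the study's methods give it for wild-type and premalignant cells and describe the malignant cells as B220+ and negative for IgM and IgD. Wild-type mice and premalignant heterozygous Eµ-Myc mice were 4 to 6 weeks old, and malignant Eµ-Myc mice had spontaneous lymphoma at 10 to 20 weeks. Per the methods, wild-type and premalignant cells came from females only, and malignant cells from both sexes. Age, sort gate and stage therefore cannot be told apart in the malignant group, and sex may differ as well. In the Eµ-Myc mouse the immunoglobulin heavy chain enhancer drives Myc in B-lineage cells, and both the premalignant and the malignant groups carry this transgene. Each of the 3 stages had 2 UBTF libraries and 1 list of peaks per library, 6 lists in all, and the inputs had no lists. A peak list carries no expression, so the sorted cell type could not be checked against marker transcripts, and the read depth behind each list is unknown.

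UBTF is a protein with HMG boxes that is best known from the ribosomal RNA genes, where it takes part in transcription by RNA polymerase I and in keeping the chromatin open. Replication-dependent histone genes lie in clusters, are expressed in S phase and end their messages in a stem-loop. The variant genes are mostly single genes scattered over the chromosomes, carry polyadenylation signals, often have introns, and supply histones for nucleosomes that are built or remodelled outside S phase.

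The lists differed in ways that touch every value below. They held between 78113 peaks (premalignant replicate 1) and 575674 peaks (premalignant replicate 2). The narrowest peak was 240 to 260 bp in both wild-type lists and premalignant replicate 1, and 670 to 800 bp in the other 3, so that stage and peak width cannot be told apart between wild type and malignant. Over 15529 other protein-coding genes with a summit in any list, the ranks of premalignant replicate 2 and malignant replicate 2 followed each other (Spearman's rho = 0.65), and each followed the other 4 lists less closely (0.242 to 0.351). Those 4 lists had rho of 0.432 to 0.608 among themselves. The points of these correlations are genes of 2 lists, which share sequence composition and mappability, and they are given as a description. The same 2 lists are the longest, with 575674 and 563265 peaks, and the only ones whose fields are set in quotation marks. Whether they were processed apart from the other 4 is not given in the sources used here, and the part of any such batch in the stage means and in the pattern of H2afx was not tested.

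A gene was counted in a list when a peak summit lay within 1 kb of any of its annotated transcript starts. The score of its best such peak was then placed among the other protein-coding genes of the same list as a percentile from 0 to 100, since scores have no common scale between lists. All 8 members had a summit at a start in wild type replicate 2, against 45.5% of other protein-coding genes, and in malignant replicate 1, against 47.6%. Wild type replicate 1 held 6 of 8 (background 36.5%), premalignant replicate 2 held 6 of 8 (33.7%) and malignant replicate 2 held 6 of 8 (41.1%). Premalignant replicate 1, the shortest list, held 2 of 8, H2afx and H3f3a, a share near the 22.3% of other genes.

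**Figure D1:**
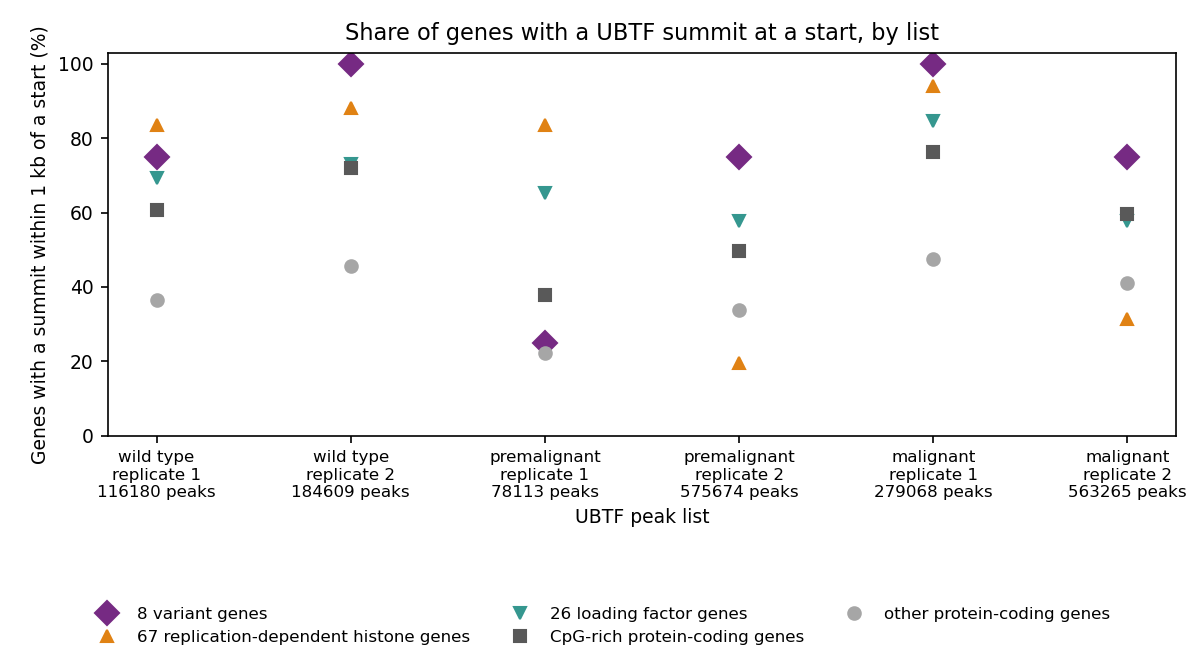
Share of genes (y axis, %) with a UBTF summit within 1 kb of a start in each of the 6 peak lists (x axis, with the number of peaks), for the 8 variant genes and for the gene groups named in the key. The variant genes stood at 75 to 100% in 5 lists and at 25% in premalignant replicate 1, while the replication-dependent histone genes stood lowest, at 19.4% and 31.3%, in premalignant replicate 2 and malignant replicate 2.

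Counted over lists, 1 member had a summit in all 6, H3f3a, against 10.3% of other protein-coding genes. H2afv, H2afy and H1fx had one in 5 lists, H2afx, H2afz and H3f3b in 4, and H1f0 in 3. Thus all 8 members had a summit in 3 or more lists, as did 42% of other genes, and none was without one, as were 30.6% of other genes. Both lists of a stage held 6 of 8 members in wild type (30.5% of other genes), 1 of 8 in premalignant cells (13.9%) and 6 of 8 in malignant cells (28.8%).

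Base composition moved with these counts. In the 500 bp on either side of the RefSeq start, the 7 members with a matched start had 56.6 to 72.9% GC and an observed over expected CpG ratio of 0.789 to 1.00, and all 7 met a definition of CpG-rich starts (GC of at least 50% and a ratio of at least 0.6). At the GENCODE start 6 of 8 members met it, as did 44.2% of other protein-coding genes, for which only that start was read. H2afx met it there with 60.3% GC, and H2afy and H3f3b did not, with 47.2% and 40.3% GC at distal annotated starts. Among CpG-rich other genes the share with a summit was 60.6%, 71.9%, 37.7%, 49.8%, 76.3% and 59.7% in the 6 lists in the order of wild type, premalignant and malignant, replicate 1 before replicate 2. The members' median percentile among all other genes was 87.1, 78.2, 38.8, 82.3, 80.1 and 71.1 in the same order. Placed among CpG-rich genes alone it was 78.7, 64.7, 31.2, 69.1, 65.6 and 52.6. The medians of all other genes themselves were 26.2 to 38.8. These medians, and the members' 38.8 in premalignant replicate 1, are the value shared by all genes without a summit in a list. They therefore do not measure a gap in peak score. The part of base composition in the members' counts was not tested further.

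Across the whole lists the counts of members did not follow list length. The lists of 575674 and 563265 peaks held 6 members each, as did that of 116180 peaks. Those of 184609 and 279068 peaks held 8. Shortening a list did lower its count. When each list was cut to its best 78113 peaks, the members kept were 5 in wild type replicate 1 (26.3% of other genes), 4 in wild type replicate 2 (22%), 2 in premalignant replicate 1 (22.3%), 2 in premalignant replicate 2 (7.62%), 3 in malignant replicate 1 (18.8%) and 1 in malignant replicate 2 (13%). H3f3a was among them in every list except premalignant replicate 2, where H2afv and H1fx were kept.

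**Figure D2:**
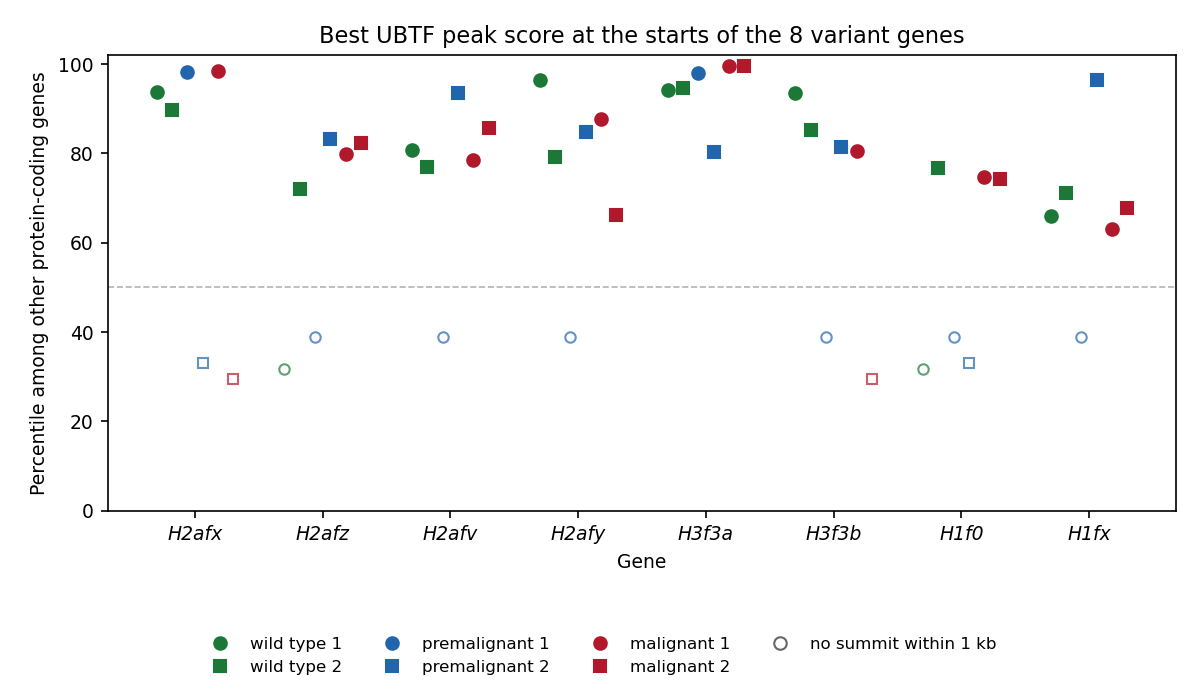
Percentile of the best UBTF peak score within 1 kb of a start (y axis) for each of the 8 genes (x axis) in the 6 lists, coloured by stage, with circles for replicate 1 and squares for replicate 2. Filled points are measured, open points mark a list with no summit and are drawn at the value shared by all genes without one, and the dashed line marks the middle rank. H3f3a is filled in all 6 lists, and premalignant replicate 1 is open for 6 of 8 genes.

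H3f3a and H3f3b encode the same protein, histone H3.3, which replaces H3 at active genes, enhancers and, through other chaperones, at telomeres and repeats. H3f3a (chromosome 1, 182730963 to 182744074, minus strand) stood at percentile 94.2 and 94.7 in the wild-type lists, at 98.0 and 80.4 in the premalignant lists and at 99.5 in both malignant lists. Both malignant values were above the other 4, and the second premalignant value was the lowest. In the whole malignant lists its best peak was within the first 0.711% and 0.475% of peaks by score. It had 5 summits near its starts in each of wild type replicates 1 and 2 and premalignant replicate 1, 4 in malignant replicate 1, 2 in malignant replicate 2 and 1 in premalignant replicate 2. The region around its best summit was 3238 to 3667 bp wide in the first 4 of these lists, against a median of 1826 to 2145 bp at other genes with a summit. In premalignant replicate 2 and malignant replicate 2 it was 2043 and 2322 bp.

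Of the 6 best summits of H3f3a, 4 lay within 300 bp of each other in an intron. They were those of wild type replicates 1 and 2, premalignant replicate 1 and malignant replicate 1, between 143 and 412 bp downstream of the RefSeq start. This stretch, chr1:182743301-182743600 of mm9, is shown on the gene's strand because H3f3a had the highest mean percentile of the members over the 6 lists (94.4). It has 70.3% GC and 35 CpG, and the capitals mark each of the 4 summit positions with 5 bases on either side where the stretch reaches that far.
H3f3a intron stretch: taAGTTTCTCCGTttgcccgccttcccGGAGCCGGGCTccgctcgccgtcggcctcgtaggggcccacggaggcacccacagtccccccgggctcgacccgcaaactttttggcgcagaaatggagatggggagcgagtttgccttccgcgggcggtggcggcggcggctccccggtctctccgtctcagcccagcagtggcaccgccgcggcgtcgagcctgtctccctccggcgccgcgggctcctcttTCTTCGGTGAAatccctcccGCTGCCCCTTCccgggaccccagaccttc
The best summits of premalignant replicate 2 and malignant replicate 2 lay on the other side, 378 and 172 bp upstream of the RefSeq start. A lincRNA, Gm17275, and a processed transcript, Gm16067, overlap H3f3a in the annotation, and a ChIP peak cannot be assigned to a strand.

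H3f3b (chromosome 11, 115883226 to 115889276, minus strand) stood at 93.5 and 85.2 in wild type, 81.4 in premalignant replicate 2 and 80.5 in malignant replicate 1, and had no summit in premalignant replicate 1 or malignant replicate 2. Its best summits in wild type and malignant replicate 1 lay 189 to 343 bp downstream of the RefSeq start, in an exon. In premalignant replicate 2 the summit lay 2795 bp upstream of that start, 663 bp after the distal start of 1 annotated transcript, in a region of 680 bp, the narrowest width that list holds. With the RefSeq start alone, this gene had no summit in premalignant replicate 2 and the list held 5 of 8 members.

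The H2A.Z genes, H2afz and H2afv, encode near-identical proteins that are placed beside gene starts by the SRCAP and EP400 remodellers. H2afz (chromosome 3, 137527451 to 137529886, plus strand) stood at 72.1 in wild type replicate 2, 83.2 in premalignant replicate 2 and 79.8 and 82.3 in malignant cells, with no summit at a start in replicate 1 of wild type or premalignant cells. Past its end lay a further summit, 3379 to 3619 bp downstream of the gene start, in all lists except premalignant replicate 1. The downstream peak outscored the best one at a start in wild type replicate 2 (9.13 against 3.91), premalignant replicate 2 (17.1 against 7.82) and malignant replicate 2 (9.43 against 9.25). Wild type replicate 1 had the downstream peak only, and malignant replicate 1 alone had the higher score at the start (5.81 against 3.51). H2afv (chromosome 11, 6327229 to 6344446, minus strand) stood at 80.7 and 77.0 in wild type, 93.5 in premalignant replicate 2 and 78.6 and 85.8 in malignant cells. It had a single summit at its starts in each of these 5 lists, 91 to 317 bp downstream of the RefSeq start, and in premalignant replicate 1 the nearest summit was 30982 bp away.

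The 250 bases before the RefSeq start are shown for 3 of the 7 members with a matched start, those with the most CCAAT matches there. Their best summit lay downstream of that start in at least 3 lists, as did that of every other matched member. Capitals mark CCAAT or its complement ATTGG, the E-box CACGTG bound by MYC and MAX, which reads the same on both strands, and TATAAA or TTTATA. Sequences are from RefSeq (GRCm38.p6), found once and without mismatch on their chromosome in mm9, and are written in the direction of transcription.
H2afv, chr11:6344447-6344696, minus strand: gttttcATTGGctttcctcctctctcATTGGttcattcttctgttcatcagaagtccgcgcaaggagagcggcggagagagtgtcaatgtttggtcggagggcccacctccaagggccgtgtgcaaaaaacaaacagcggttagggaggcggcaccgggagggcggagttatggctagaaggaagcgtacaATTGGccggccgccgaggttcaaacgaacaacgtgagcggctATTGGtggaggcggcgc
H3f3b, chr11:115885819-115886068, minus strand: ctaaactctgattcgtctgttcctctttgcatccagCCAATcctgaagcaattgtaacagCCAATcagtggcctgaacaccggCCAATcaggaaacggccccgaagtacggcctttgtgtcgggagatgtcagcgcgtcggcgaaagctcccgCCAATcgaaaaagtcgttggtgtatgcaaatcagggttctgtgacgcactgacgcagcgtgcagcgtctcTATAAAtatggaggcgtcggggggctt
H2afz, chr3:137527201-137527450, plus strand: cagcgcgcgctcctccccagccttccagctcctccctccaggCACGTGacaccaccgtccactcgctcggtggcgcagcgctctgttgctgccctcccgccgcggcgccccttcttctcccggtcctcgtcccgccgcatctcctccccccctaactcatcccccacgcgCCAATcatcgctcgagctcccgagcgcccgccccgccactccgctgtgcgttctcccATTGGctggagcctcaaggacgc
H2afv and H3f3b had 4 CCAAT matches each, and 4 or more were found in 1.1% of 17492 RefSeq promoters of the same length. H2afz had 2 CCAAT matches (12% of promoters had 2 or more) and 1 E-box (6.64%), the only E-box among the 7 promoters matched. H3f3b had 1 TATAAA match (12.4%) and H3f3a 1 CCAAT match (36.3%). H2afy, H1f0 and H1fx held none of the 3 motifs there. A window from 250 bases before to 50 after the GENCODE gene start could be read for all 8 members. In it 3 of 8 had a CCAAT match (37.9% of other protein-coding genes), 1 of 8 an E-box (7.78%) and 2 of 8 a TATAAA match (13.4%). H2afx, which had no matched RefSeq start, held 3 CCAAT matches and 1 TATAAA match in this window, and H2afz held 3 CCAAT matches. A match is a description of letters and not of a bound factor.

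H2afx encodes H2A.X, the variant that is phosphorylated around DNA breaks. Its gene (chromosome 9, 44142798 to 44144154, plus strand) has a single exon, and its messages are known to end either in a polyadenylated tail or in the stem-loop of the replication-dependent genes. It stood at 93.7 and 89.8 in wild type, 98.2 in premalignant replicate 1 and 98.4 in malignant replicate 1, and had no summit at its start in premalignant replicate 2 or malignant replicate 2. There the nearest summits were 4495 and 3923 bp away. Where present it had 2 or 3 summits inside a gene of 1357 bp, with the best one in the coding exon, 116 to 420 bp from the start. Of 32-base words within 1 kb of its start 88.0% occurred once in mm9, the lowest share of the 8 members, the others having 90.4 to 100%.

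The lists that held H2afx were also those in which the replication-dependent histone genes, taken as the 67 protein-coding genes named Hist1h to Hist4h, had summits. Of these 67 genes 83.6% and 88.1% had one in the wild-type lists. The share was 83.6% in premalignant replicate 1 and 94% in malignant replicate 1, but 19.4% in premalignant replicate 2 and 31.3% in malignant replicate 2. Exactly the 4 lists of H2afx were the lists of 30 of the 67 (44.8%) and of 2.63% of other protein-coding genes, and no other member had that pattern. H2afz, H2afv, H2afy, H3f3a and H1fx had summits in both of the lists that lacked H2afx. This is a description of lists and genes chosen with earlier results known, with no test.

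**Figure D3:**
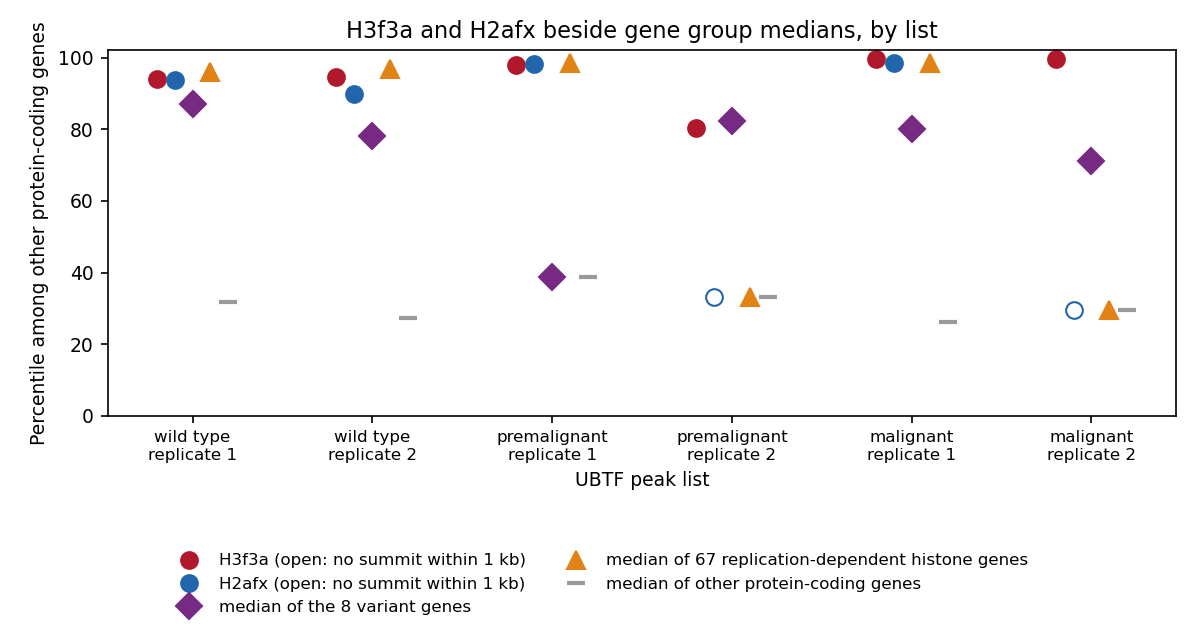
Percentile among other protein-coding genes (y axis) in the 6 lists (x axis) for H3f3a and H2afx, beside the medians of the 8 variant genes, of 67 replication-dependent histone genes and of other protein-coding genes. Open points mark a list with no summit, drawn at the value shared by genes without one. H2afx and the replication-dependent median are both high in 4 lists and at the no-summit value in premalignant replicate 2 and malignant replicate 2, while H3f3a stays at 80.4 or above.

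H2afy encodes macroH2A1, an H2A with a large additional domain that is found on the inactive X chromosome and other repressed chromatin. The gene (chromosome 13, 56174980 to 56237722, minus strand) is the longest member at 62743 bp, with 7 annotated starts spread over 51840 bp. It stood at 96.4 and 79.3 in wild type, 84.8 in premalignant replicate 2 and 87.7 and 66.2 in malignant cells. The best summits lay 76 to 645 bp downstream of the RefSeq start. A separate summit lay 3421 to 3463 bp upstream of the annotated gene in every list except malignant replicate 2, and was the nearest one in premalignant replicate 1. The predicted gene Gm17253 shares a start window with H2afy and had a summit at a start in 1 list.

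Of the linker histone genes, H1f0 had the lowest mean percentile of the members over the 6 lists (54.9), and H1fx (67.2) lay between H2afz (64.7) and H3f3b (68.1). This order changed with the setting. With gene starts only H3f3b (41.4) was below H1f0 (57.6). With lists cut to the shortest H2afz and H1f0 were both at 40.8 and H1fx at 49.2. H1f0 encodes H1.0, the linker histone that accumulates in differentiated and resting cells, and H1fx encodes H1.10. H1f0 (chromosome 15, 78859152 to 78859689, plus strand, in GENCODE M1) stood at 76.8 in wild type replicate 2 and at 74.6 and 74.4 in malignant cells, with no summit at its start in the other 3 lists. Where present, its best summit lay 176 to 499 bp before the annotated pseudogene but 11 to 334 bp after the RefSeq start, which is 510 bp further upstream. H1fx (chromosome 6, 87930416 to 87931476, minus strand) stood at 66.0 and 71.2 in wild type, 96.4 in premalignant replicate 2 and 63.1 and 67.8 in malignant cells. The value of premalignant replicate 2 was the highest of any member in that list, and its summit lay 3 bp from the start. Gm5577, a predicted protein-coding gene on the other strand, overlaps H1fx and shares its window, with percentiles of 66.0, 71.2, 96.4, 63.1 and 67.8 in the same 5 lists, so that the peak cannot be assigned to either gene.

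**Figure D4:**
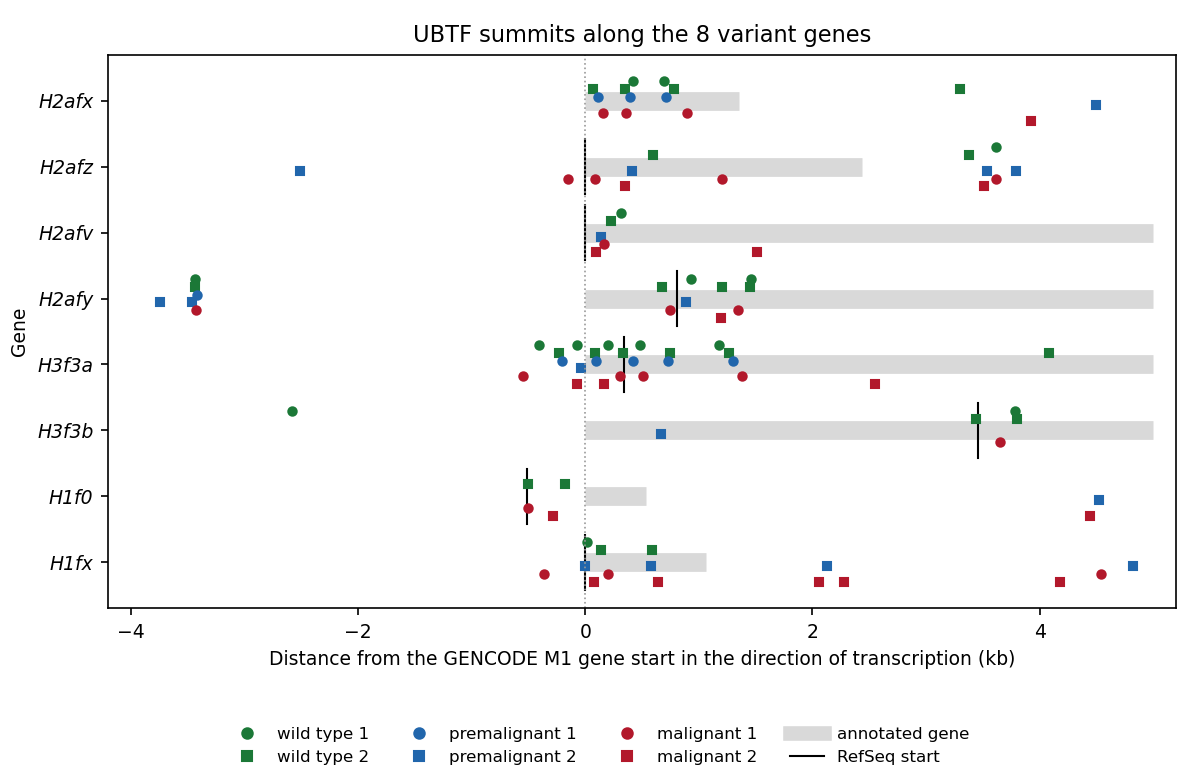
Positions of UBTF summits (points, coloured by stage, circles for replicate 1 and squares for replicate 2) relative to the annotated start of each of the 8 genes (y axis), in kb in the direction of transcription (x axis, 4 kb before to 5 kb after the start). Grey bars are the annotated genes and black ticks the RefSeq starts. Summits gather at the RefSeq start of H1f0 and H3f3b, 510 bp before and 3458 bp after the annotated gene start, and a second group stands beyond the end of H2afz.

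Over all members and lists, 36 of 48 pairs of a gene and a list had a summit at a start. Their best summit was in an intron in 16, in a coding exon in 6, in an untranslated part in 4, in an exon of unstated coding in 4, and upstream of the annotated gene in 6. In the 36 pairs the nearest summit was 0 to 663 bp from a start, with a median of 73.5 bp. In the other 12 it was 2978 to 77439 bp away, so that no pair lay just outside the 1 kb limit.

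Gene bodies added no member. Counting a summit at a start or anywhere in the gene gave the same 6, 8, 2, 6, 8 and 6 members in the 6 lists, against 57.2%, 67%, 42.4%, 62.6%, 66.9% and 69.7% of other protein-coding genes. Of 74 summits inside the 8 genes, 15 were over 1 kb from any start, 6 of them in malignant replicate 2 and 5 in malignant replicate 1, where all 5 were in H2afy. Per kb of gene the members had 0.105 and 0.182 summits in the wild-type lists, against 0.041 and 0.0636 for other genes. The premalignant lists gave 0.067 and 0.0574 for the members against 0.0252 and 0.142, and the malignant lists 0.182 and 0.115 against 0.0774 and 0.15. The members were thus above the other genes in 4 lists and below them in premalignant replicate 2 and malignant replicate 2. The other genes were not matched in length, and most of the 74 summits lay within 1 kb of a start. H1f0, H1fx, H2afx, H2afz and H3f3b are only 538 to 6051 bp long. The part of gene length in these rates was not tested.

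The stages were compared by the mean percentile of each member over 2 libraries, with genes without a summit at the value shared by all such genes. A two-sided exact permutation test of 2 libraries against 2 cannot give a p below 0.33, so no difference could pass a threshold by it. Of 22367 protein-coding genes 0 had an unadjusted and 0 a Benjamini-Hochberg adjusted p under 0.05 by this test in any of the 3 comparisons. The differences are therefore given as sizes, with the count of members whose stages did not overlap.

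In premalignant against wild-type cells 7 members were lower and 1, H2afz, was higher, with a median difference of -15.5 percentile points. The median was -7.71 over the 13407 other genes with a summit in at least 1 of the 4 lists, and 63.7% of all other genes were higher. Only H3f3b did not overlap, at 60.1 ± 30.1 against 89.3 ± 5.89 (SD, n = 2 each), a difference of -29.2 (exact permutation p = 0.33). Its direction depended on the start: it was 30.4 with the gene start only and -53.3 with the RefSeq start, and -7.95 without premalignant replicate 1. Thus 1 of 8 members was below with no overlap, as were 10.6% of other protein-coding genes, and 0 of 8 above, as were 52.2%. The large second share came from genes without any summit in the 4 lists, 8953 of 11661, whose shared value was higher in both premalignant lists (38.8 and 33.2) than in wild type (31.7 and 27.3). Among the 13407 genes with a summit the shares were 17.7% below and 20.2% above. With premalignant replicate 1 alone the median difference from wild type was -22.6, and with premalignant replicate 2 alone it was -5.49. It was -7.60 with gene starts only and -7.49 with lists cut to the shortest.

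In malignant against premalignant cells 5 members were higher and 3 lower, with a median difference of 12.7 points. The median was 6.87 over the 14336 other genes with a summit in the 4 lists, and 39.8% of all other genes were higher. H3f3a did not overlap, at 99.5 ± 0.00632 against 89.2 ± 12.5 (SD, n = 2 each), a difference of 10.3, and neither did H1f0, at 74.5 ± 0.174 against 36.0 ± 4.02, where both premalignant lists had no summit (exact permutation p = 0.33 for each). Without premalignant replicate 2 the difference of H3f3a was 1.45, and with lists cut to the shortest it was 27.4 and that of H1f0 -0.465. These were 2 of 8 members, beside 7.06% of other protein-coding genes above with no overlap, and 0 of 8 were below, beside 43.3%, of which 8024 of 9678 genes had no summit in the 4 lists. Among the 14336 genes with one, 11% were above and 11.5% below. Against premalignant replicate 2 alone, which has wide peaks like the malignant lists, the median difference was -4.98, and with lists cut to the shortest it was -0.465, so that its direction changed with the premalignant list used and with list length. With gene starts only it was 4.96.

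In malignant against wild-type cells 4 members were higher and 4 lower, with a median difference of 0.127. The median was 0.922 over the 14952 other genes with a summit in the 4 lists, and 34.8% of all other genes were higher. H3f3a was above with no overlap, at 99.5 ± 0.00632 against 94.4 ± 0.383, a difference of 5.06, and H2afz at 81.0 ± 1.78 against 51.9 ± 28.6, a difference of 29.1 (SD, n = 2 each, exact permutation p = 0.33 for each). H3f3b was below, at 55.0 ± 36.1 against 89.3 ± 5.89, a difference of -34.4 (exact permutation p = 0.33). The difference of H2afz was 8.91 without wild type replicate 1, 49.3 without wild type replicate 2 and 4.12 with lists cut to the shortest. That of H3f3b was -8.84 without malignant replicate 2, -59.9 without malignant replicate 1 and -1.10 with the gene start only. That of H3f3a stayed between 4.79 and 5.33 when any 1 library was left out. They made up 2 of 8 above, beside 8.41% of other protein-coding genes, and 1 of 8 below, beside 13.2%. Among the 14952 genes with a summit, 12.6% were above and 19.7% below. Peak width differs between all libraries of these 2 stages, and its part cannot be told apart from that of stage.

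Reproducibility within a stage was assessed with the irreproducible discovery rate (IDR), a rank model of the peaks shared by both lists, at an IDR under 0.05. H3f3a had a reproducible peak at a start in wild type (IDR = 0.0222), where 5.81% of other protein-coding genes had one, and in malignant cells (IDR = 0.00148), where 8.59% did. No other member passed, so the counts were 1 of 8 in wild type, 0 of 8 in premalignant cells, where 0.21% of other genes had one, and 1 of 8 in malignant cells. Next came H2afv in malignant cells (IDR = 0.051), H2afx in wild type (0.062) and H2afz in malignant cells (0.064). In premalignant cells 870 of 57845 shared peaks passed, and the pair at H3f3a, with summits 770 bp apart, had an IDR of 0.944. The call of H3f3a in wild type was lost at an IDR under 0.01, with lists cut to the shortest and with summits paired within 200 bp. Its call in malignant cells was lost with the 200 bp pairing. The summits of its best pairs lay 269 bp apart in wild type and 340 bp apart in malignant cells. The 200 bp pairing thus excluded these pairs whatever their scores.

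Genes of the proteins that load, exchange or read these variants were set beside the members. These 26 entries, Srcap counting as 2 since the annotation holds it as 2 genes, had a summit at a start in 57.7 to 84.6% of cases in each list. The share was 65.4% in premalignant replicate 1, against 22.3% of other protein-coding genes and 37.7% of CpG-rich ones. A summit in all 6 lists was found for 11 of 26, against 10.3% of other protein-coding genes and 18.9% of CpG-rich ones. Among the 26 entries and the other histone variant genes, 3 had the highest mean percentiles over the 6 lists. They were Asf1a, a chaperone of H3 and H4 (97.2), Hira, which loads H3.3 (93.2), and Dek, also an H3.3 chaperone (90.5). Each had a summit in all 6 lists. Hist1h1t, the testis linker histone, Mdc1, which binds phosphorylated H2A.X, and the second Srcap entry had none in any list, and their place as the lowest follows the alphabet among all with none. Of 13 other variant genes, 3 are also among the 67 replication-dependent genes. Of the 13, 6 had no summit in any list (30.6% of other protein-coding genes), and 0 had one in all 6 (10.3%). The 5 protein-coding genes whose percentiles lay closest to the members' medians in the 6 lists were Crat, Sms, Pgap1, Zc3h7a and Prdm2, with mean absolute differences of 2.29 to 2.74 points, each with a summit in 5 lists.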

How the data were processed

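UBTF ChIP-seq libraries from pre-B cells were compared as peak lists, 2 per stage. Per the study's methods, the authors sequenced 50-base paired reads and aligned them to mm9 with 1 added copy of the ribosomal DNA repeat. They then removed duplicate reads and called peaks with SPP in each library. Submitters' processing notes name CASAVA 1.8.2, Bowtie and Picard 1.110. The deposited lists give positions, a peak score and a q-value (false discovery rate), which is a p-value corrected for the number of peaks and reached 0.0496 in premalignant replicate 2 and at most 0.00361 elsewhere. Scores are in units of each list, so only ranks within a list were used. The lists hold no read counts, no depth and no input signal.

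Starts and genes came from GENCODE M1 on mm9. The members and the gene lists were chosen with earlier results of these data known. A gene's best score within 1 kb of a start was ranked among 22360 other protein-coding genes, with tied genes given their middle rank. Stages were compared with a two-sided exact permutation test per gene, Benjamini-Hochberg adjusted over 22367 genes. IDR was fitted as a Gaussian copula mixture to peaks overlapping by at least 1 bp. The code was tested on simulated data. Named besides the members were the 3 highest and 3 lowest related genes by mean percentile, the 5 genes closest to the members' medians and genes sharing a start window. Alternatives covered the window, the starts, the overlap rule, list length, false discovery rate, background, replicates and peak width. The methods describe the replicates as biological, and p-values measure only the spread between these samples. Python 3.11.15, numpy 2.4.6, pandas 2.3.3 and scipy 1.17.1 were used.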

Additional observations from a re-analysis of the deposited data

How the results depend on the processing

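Peak lists without depth limit the values to ranks, and the exact test of 2 libraries against 2 can make no call between stages. Counts of members with a summit at a start stayed within 1.5 times under other windows, starts, overlap rules, a false discovery rate of at most 0.01, RefSeq starts and without H1f0 (the last 2 added after seeing the data). With lists cut to the shortest they fell to 4 in wild type replicate 2, 2 in premalignant replicate 2, 3 in malignant replicate 1 and 1 in malignant replicate 2, and the medians to 59.1, 46.2, 40.6 and 43.5. List length itself is what this setting changes. Against CpG-rich genes the median was 78.7 and 64.7 in wild type, 65.6 in malignant replicate 1 and 52.6 in malignant replicate 2. In wild type replicate 1 it was 68.6 with gene starts only, 93.9 with starts of coding transcripts, where H1f0 has none, and 93.5 without H1f0. In malignant replicate 2 it was 62.8 with a window of 2 kb. The cause of these last shifts was not tested.

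The median difference of malignant minus wild type became -6.83 with lists cut to the shortest, that of malignant minus premalignant turned to -0.465 and that of premalignant minus wild type was -7.49. With gene starts only the last 2 were 4.96 and -7.60. Malignant minus wild type, near 0 at 0.127, was also negative with starts of coding transcripts (-2.83), against CpG-rich genes (-0.485) and without H1f0 (-3.09). Leaving out each replicate in turn, the median differences ranged from -22.6 to -5.49 for premalignant minus wild type, from -4.98 to 31.1 for malignant minus premalignant, and from -2.30 to 2.48 for malignant minus wild type. Leaving out the second premalignant and second malignant lists together, an alternative added after seeing the data, gave -22.6, 37.8 and 2.48. Over all alternatives 53 of 349 differences of single members changed sign, 8 of 24 with lists cut to the shortest, and none of them had passed a threshold. With the replicate number as a replicate block, the median differences stayed at -15.5, 12.7 and 0.127, and exact sign-flip tests gave p from 0.5, the smallest possible with 2 pairs, to 1. Same-numbered samples had deviations from their stage means that correlated with r = 0.0440, 0.361 and 0.0713 over 15529 genes, in the order of the 3 comparisons given, and the labels give the number no other meaning.

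Members with a reproducible peak in wild type numbered 0 at an IDR under 0.01 (2.88% of other genes) and 0 with lists cut to the shortest (2.26%). They numbered 0 with 200 bp pairing (3.42%) and 6 when a summit in both lists sufficed (30.5%). By that last rule premalignant cells had 1 (13.9%) and malignant cells 6 (28.8%). In malignant cells 200 bp pairing left 0 members and 0.827% of other genes, against 8.59% of other genes in the main setting. Summits in the gene bodies fell to 7, 12 and 2 in wild type replicates 1 and 2 and premalignant replicate 1 when overlapping regions were merged. With lists cut to the shortest they fell to 7 and 6 in wild type, 1 in premalignant replicate 2, 5 in malignant replicate 1 and 1 in malignant replicate 2. The mean percentile of each member over the 6 lists moved by less than the spread between replicates under all alternatives run. That spread was 7.2 points for H3f3a but 18.5 to 38.7 for the other members, so that large shifts stayed within it. With gene starts only H3f3b went from 68.1 to 41.4. With lists cut to the shortest H2afz went from 64.7 to 40.8 and H2afv from 75.7 to 56.0, while H2afx rose from 73.8 to 78.3.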
